A study of Mus musculus with 57 samples.

Results

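The acute-phase and antimicrobial genes Saa3, Lcn2, Hp, Slpi, Ptx3, Steap4 and Pglyrp1 were followed in CD11b-positive cells of the mouse brain, which the labels annotate as microglia. These 7 genes were taken by symbol from 50565 genes counted in one experiment and 53278 in another, and each was present in both tables. Animals were wild type (WT) or littermates deficient in P2RY12 (KO), a nucleotide receptor of resting microglia. In the LPS experiment, libraries were labelled WT ns (8), WT LPS (9), KO ns (8) and KO LPS (8). LPS is bacterial lipopolysaccharide, given by intraperitoneal injection at 1 mg/kg. What ns stands for, the time after injection and the sex of the animals are not in the labels of that experiment. In the sex experiment there were 4 WT and 5 KO adult males and 4 WT and 5 KO adult females. The labels give those animals no treatment, although the protocol attached to every library describes the injection. The labels do not say how the P2ry12 allele was made, and they do not say whether each LPS-experiment library came from its own animal, so p-values there measure the spread between libraries, which may be technical.

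The acute-phase response is the set of secreted and cell-bound proteins that increases during inflammation, driven by TLR signalling and by IL-1, IL-6 and TNF through the transcription factors NF-kappaB, STAT3 and C/EBP. Saa3 encodes a serum amyloid A made outside the liver, largely by macrophages and epithelium. Lcn2 encodes lipocalin 2, which starves bacteria of iron by binding their siderophores, and Hp encodes haptoglobin, which captures free haemoglobin. Pglyrp1 encodes a peptidoglycan recognition protein that kills bacteria, Slpi an inhibitor of neutrophil serine proteases, Ptx3 a long pentraxin that opsonises microbes, and Steap4 a metalloreductase that reduces iron and copper. Lcn2, Hp, Pglyrp1 and Slpi are also products of neutrophils, and Lcn2 and Steap4 of reactive astrocytes.

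The promoters of the 3 genes that rose under LPS in KO libraries are shown, since C/EBP proteins are known inducers of acute-phase genes. They are the 250 bases upstream of the start in RefSeq's GRCm38.p6 table, 5′ to 3′ on the gene's strand, with matches to TTGCNNAA on either strand in capitals. Saa3 is at chr7:46715677-46715926 (minus strand), Lcn2 at chr2:32387740-32387989 (minus strand) and Steap4 at chr5:7960222-7960471 (plus strand).
Saa3: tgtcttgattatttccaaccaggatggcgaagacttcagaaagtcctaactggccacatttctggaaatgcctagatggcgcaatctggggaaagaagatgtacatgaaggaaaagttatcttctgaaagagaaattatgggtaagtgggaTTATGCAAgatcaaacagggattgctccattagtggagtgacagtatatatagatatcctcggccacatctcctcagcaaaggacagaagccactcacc
Lcn2: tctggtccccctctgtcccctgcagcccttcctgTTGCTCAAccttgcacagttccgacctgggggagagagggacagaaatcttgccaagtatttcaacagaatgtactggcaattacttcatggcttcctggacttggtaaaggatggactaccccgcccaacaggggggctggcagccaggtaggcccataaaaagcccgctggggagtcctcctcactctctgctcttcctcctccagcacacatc
Steap4: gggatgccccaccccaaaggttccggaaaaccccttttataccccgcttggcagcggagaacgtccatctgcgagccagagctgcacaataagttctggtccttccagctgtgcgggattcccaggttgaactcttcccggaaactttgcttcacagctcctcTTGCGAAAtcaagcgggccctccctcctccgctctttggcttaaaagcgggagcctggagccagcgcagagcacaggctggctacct
The table held 6 of the 7 genes, all but Hp. TTGCNNAA was found in 5 of those 6, all but Pglyrp1, and in 9.56% of 32851 promoters of the same length. Counted from the start, the match spanned positions -99 to -92 in Saa3, -216 to -209 in Lcn2 and -87 to -80 in Steap4. An NF-kappaB motif, GGGA and CC with 4 bases between them on either strand, had matches in Steap4 and Pglyrp1 and in 17.6% of all promoters. A STAT motif, TTCNNNGAA, had a match in Steap4 and in 7.02% of all promoters. These are matches of letters in one window and not mapped sites.

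In the LPS experiment 4 WT libraries went against their treatment labels, and the WT values that the results turn on are given with and without them. They carry library number 2 and are WT ns 1, WT ns 5, WT LPS 1 and WT LPS 6. Saa3 was at 1781 CPM in the library labelled WT ns 1 and at 2491 in that labelled WT ns 5. It was at 1.59 CPM in the library labelled WT LPS 1 and at 3.21 in that labelled WT LPS 6. CPM is the count of a gene per M of TMM-scaled library counts, with M for mega. P2ry12 went the same way, with 481 and 927.4 CPM in those ns libraries against 3516 to 5406 in the other 6. In those LPS libraries P2ry12 was at 4461 and 12150 CPM, against 400.3 to 1063 in the others. In KO libraries P2ry12 was at 585.2 to 1243 CPM in ns and 84.24 to 154.1 in LPS, so the targeted gene kept counts in KO, and a gene-level count cannot tell which exons were read. In the sex experiment P2ry12 was at 3007 CPM or more in WT and 526.4 or less in KO. WT LPS 8 and 9 were far closer to each other than any other pair of a group and were summed as 1 sample, leaving 32 samples. Totals were 15.9 to 168.4 M counts in the LPS experiment and 58.5 to 318.5 M in the sex experiment. The microglia markers were high in every LPS-experiment library, at a summed 16560 CPM or more, while fibroblast and pericyte markers summed to 5.45 CPM or less. Astrocyte markers summed to 13.1 CPM or less there and to 101.2 or less in the sex experiment. Markers of neutrophils were present in all libraries, at a summed 1092 to 20380 CPM in the LPS experiment and 1503 to 51850 CPM in the sex experiment.

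**Figure D1:**
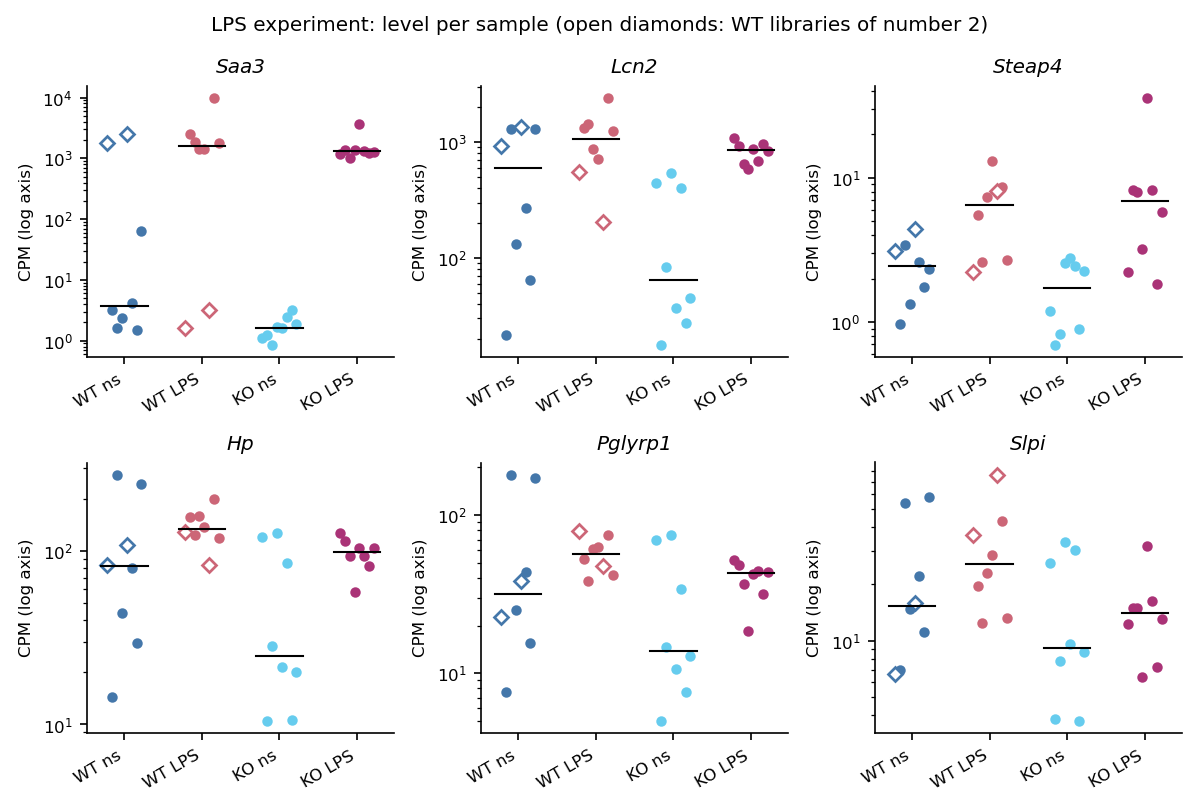
Level of 6 of the genes in every sample of the LPS experiment, in CPM on log axes, by labelled group, with a line at the median of the group. Open diamonds are the WT libraries of number 2, which lie with the opposite treatment for Saa3. In KO, Saa3 and Lcn2 of all LPS libraries lie above all ns libraries.

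The clearest response was that of Saa3 to LPS in KO libraries, where it went from at most 3.24 CPM in ns to at least 1024 in LPS. Lcn2 and Steap4 also rose, and Hp, Pglyrp1 and Slpi did not pass the test. Of the 6 genes that passed the filter on low counts, 3 were called higher (edgeR's quasi-likelihood test, Benjamini-Hochberg adjusted p under 0.05 over all genes), against 23.9% of the 14796 genes tested in either direction and 12% in the upward one. Their median log2 fold change was 1.55, against 0.0163 over all genes tested. Ptx3 did not pass the filter.

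Saa3 lies on chromosome 7 from 46361422 to 46365100 (GRCm39, minus strand). In KO ns it was at 0.861, 1.12, 1.25, 1.61, 1.68, 1.90, 2.43 and 3.24 CPM, lowest to highest, from 24 to 87 counts a library. In KO LPS the lowest of 8 libraries was at 1024 CPM, the median at 1301 and the highest, KO LPS 5, at 3698. The groups did not overlap. The ratio of the medians was 789.6, and the log2 fold change was 9.87 ± 0.39 (SE, n = 8 and 8, adjusted p = 9.87e-11). It was 9.93 ± 0.22 in the first set of library names and 9.72 ± 0.72 in the second. Without KO LPS 5 it was 9.57 ± 0.27. The other serum amyloid A genes were near the limit of detection and were not tested. Saa1 had 6 to 34 counts in the 8 KO LPS libraries and at most 1 in KO ns. Saa2 had 1 to 11 counts against 0 in each of the 8 KO ns libraries, and Saa4 had at most 1 in any KO library. A count of 0 allows up to 3 counts in a single library, and less as an average over 8. Saa1 and Saa2 are near-identical, so reads between them may have been split or dropped.

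Lcn2 lies on chromosome 2 from 32274649 to 32277751 (GRCm39, minus strand). In KO ns it was at 17.8, 27.6, 37.0, 45.3, 83.8, 402.5, 444.6 and 542.3 CPM, lowest to highest. In KO LPS it was at 583.9 to 1087 CPM with a median of 860.9. The lowest LPS library was above the highest ns library, by a small margin, and KO ns held 3 high and 5 low libraries. The log2 fold change was 2.13 ± 0.67 (SE, adjusted p = 0.0284). This call was lost by leaving out KO ns 3, KO ns 5 or KO ns 8 (adjusted p 0.0503, 0.0506 and 0.0525), and within either library set, with 1.56 ± 0.98 (adjusted p = 0.225) and 2.79 ± 0.84 (adjusted p = 0.145).

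Steap4 lies on chromosome 5 from 8010472 to 8032213 (GRCm39, plus strand) and its levels were low. In KO ns it was at 0.697 to 2.79 CPM with a median of 1.73. In KO LPS it was at 1.84, 2.23, 3.23, 5.77, 7.95, 8.22, 8.24 and 35.6 CPM, lowest to highest. The 2 lowest LPS libraries lay within the range of ns, and KO LPS 5, the library with the highest Saa3, stood far above the others. The log2 fold change was 2.38 ± 0.56 (SE, adjusted p = 0.00477), and 1.70 ± 0.43 without KO LPS 5 (adjusted p = 0.0067). Within the first library set it was 2.00 ± 0.56 (adjusted p = 0.017) and within the second 2.69 ± 0.88 (adjusted p = 0.182).

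Levels of the neutrophil products Hp, Pglyrp1 and Slpi overlapped between ns and LPS in KO. Hp, on chromosome 8 from 110301760 to 110305804 (GRCm39, minus strand), had a median of 24.8 CPM in KO ns (lowest 10.45, highest 126.1). In KO LPS its median was 98.9 (lowest 57.7, highest 127.2), and the log2 fold change of 0.97 ± 0.50 had an adjusted p of 0.189. Pglyrp1, on chromosome 7 from 18618615 to 18624363 (plus strand), had medians of 13.75 CPM in ns and 43.0 in LPS, and its log2 fold change was 0.62 ± 0.50 (SE, adjusted p = 0.433). For both genes the LPS libraries lay above the lower ns libraries. For Pglyrp1, KO ns 1 and KO ns 4, at 69.3 and 74.9 CPM, lay above every LPS library, which spanned 18.5 to 51.7. Slpi, on chromosome 2 from 164195990 to 164231086 (minus strand), had medians of 9.09 and 14.0 CPM, with ranges of 3.72 to 33.6 in ns and 6.38 to 31.8 in LPS. Its log2 fold change was -0.06 ± 0.51 (adjusted p = 0.95). Slpi's counted span of 35097 bases contains the microRNA gene Mir7678, so reads there may be counted for either.

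Ptx3, on chromosome 3 from 66127308 to 66133227 (GRCm39, plus strand), was almost absent. It had 1 count in 1 of 8 KO ns libraries and at most 3 counts in 2 of 8 KO LPS libraries. In WT the highest library was WT LPS 7, with 9 counts. Ptx3 lies inside Veph1 on the opposite strand, and a strand setting of the counting is not given in the sources used here, so these few counts cannot be assigned to Ptx3 with certainty.

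The neutrophil markers varied between KO ns libraries together with Lcn2, Hp and Pglyrp1, and less closely with Slpi. The list holds 13 genes, among them S100a8, S100a9, Ly6g and Mpo, and none of the 7 genes described here. The 3 KO ns libraries with high Lcn2, KO ns 1, KO ns 4 and KO ns 6, had summed marker levels of 8463, 9709 and 10380 CPM. The other 5 had 1092 to 2814 CPM. The KO LPS libraries had summed marker levels of 2103 to 5144 CPM, and each had more Lcn2 than those 3 ns libraries. By the mean log2 marker level used below, the KO LPS libraries were not all lower, with KO LPS 1 at 7.092 and KO ns 6 at 7.039. The part of the marker level in Lcn2 under LPS was not tested. None of the 13 markers was called between LPS and ns in KO, and their median log2 fold change was -0.40. They went in both directions, from -2.44 ± 0.88 for Camp (edgeR adjusted p = 0.0558) to 1.31 ± 0.48 for Cxcr2 (edgeR adjusted p = 0.0559). The median of their summed level was 2543 CPM in KO ns and 3550 in KO LPS. Over all 14796 genes tested in that comparison, 1754 were called lower and 1780 higher. Of other marker lists, 3 of 5 border macrophage genes fell (median -1.33), 3 of 4 tested endothelial genes fell (median -0.98) and 4 of 9 microglia genes fell (median -0.58). Of 7 monocyte genes 1 rose and 1 fell, of 5 erythroid genes none was called, and of 5 tested astrocyte genes Gfap alone rose, by 1.63 ± 0.45. The part of these lists in the results was not tested. Over the 8 KO ns libraries, log2 CPM correlated with the mean log2 marker level with r = 0.988 and rho = 0.976 for Pglyrp1 (exact permutation p, two-sided, 7.4e-05 and 0.0004, adjusted over 38 relations to 0.00028 and 0.0012). For Lcn2 r was 0.969 and rho 0.976 (exact permutation p 7.4e-05 and 0.0004), and for Steap4 0.296 and 0.333 (exact permutation p 0.45 and 0.43). For Hp they were 0.967 and 0.929 (exact permutation p 0.00042 and 0.0022). For Slpi they were 0.908 and 0.762 (exact permutation p 0.0047 and 0.037, adjusted 0.011 and 0.067). Without the 2 ns libraries farthest from the median, r was 0.959 for Pglyrp1 and 0.982 for Lcn2. Over the 8 KO LPS libraries r was 0.762 for Pglyrp1 (exact permutation p 0.016, adjusted 0.033; rho 0.857, p 0.011) and 0.333 for Lcn2 (exact permutation p 0.41, rho 0.405, p 0.33). Without the 2 farthest of those it was 0.564 and -0.62. In these bulk samples fewer cells of a type and less RNA per cell cannot be told apart.

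With the mean marker level as a covariate, a fit added after the data were seen, 5 of the 6 genes were called higher in KO LPS, against 12.3% of all genes. Hp had a log2 fold change of 1.44 ± 0.21 (SE, adjusted p = 0.000155), Pglyrp1 of 1.02 ± 0.17 (adjusted p = 0.000393) and Lcn2 of 3.06 ± 0.31 (adjusted p = 4.14e-06). Slpi, at 0.31 ± 0.33 (adjusted p = 0.564), stayed below the threshold. Saa3 and Steap4 moved little, to 9.88 ± 0.40 and 2.46 ± 0.56. In the same fit 2 of the 13 neutrophil markers were called higher and 1 lower, with a median log2 fold change of 0.359. The covariate therefore did not level every marker between ns and LPS. The covariate fit assumes 1 slope on the marker level for ns and LPS libraries, and whether the slopes differ was not tested.

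**Figure D2:**
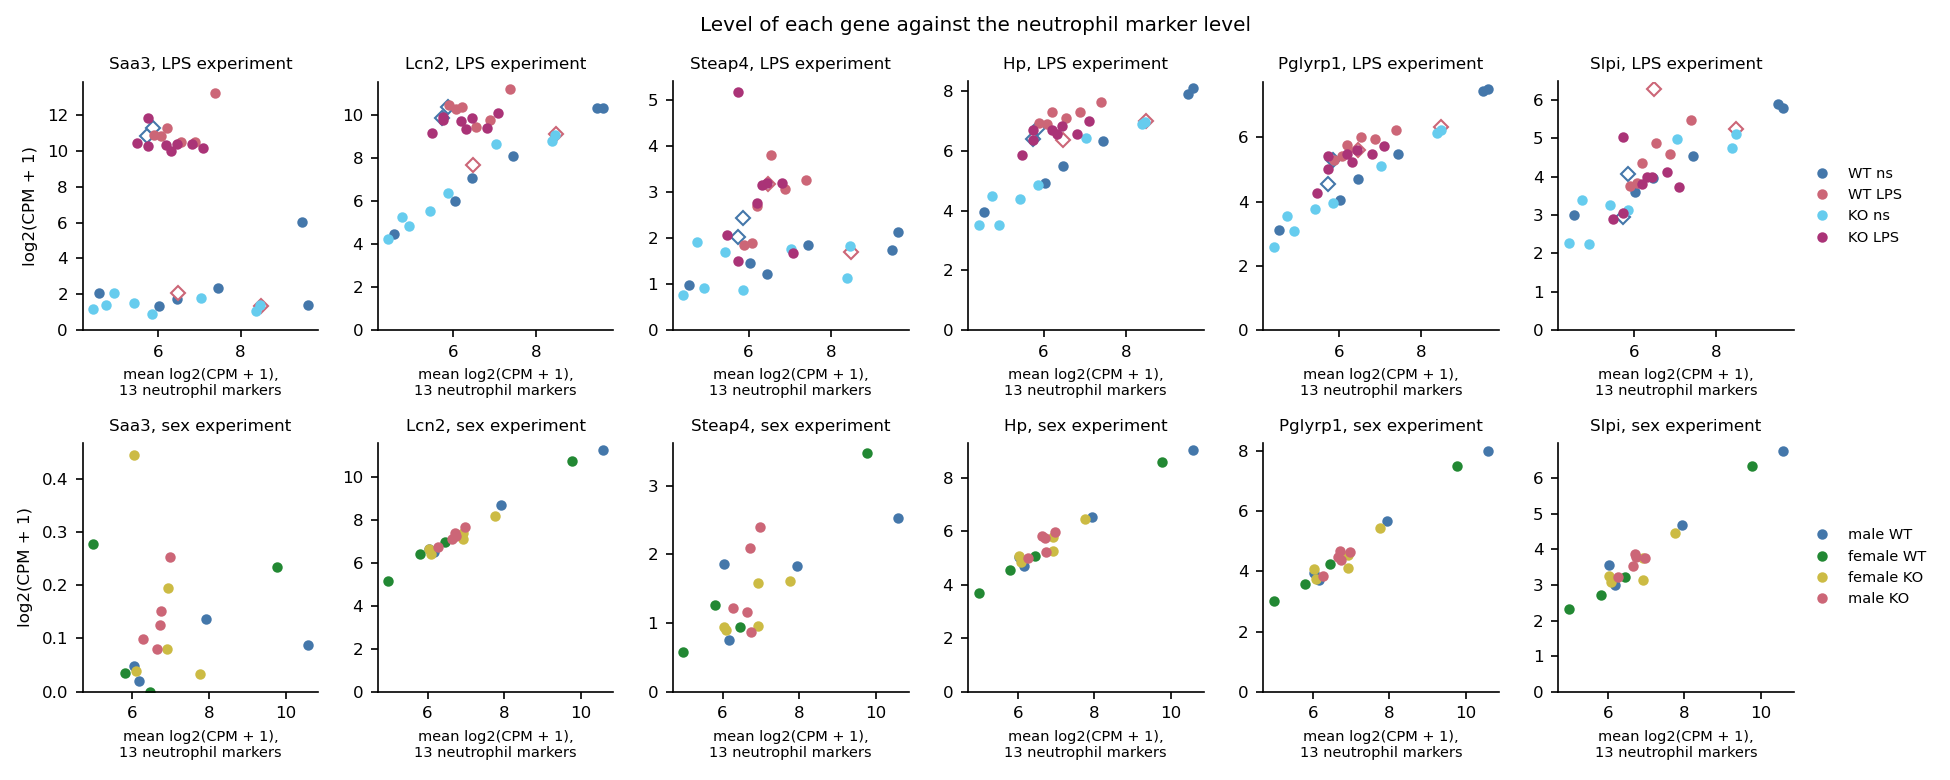
Level of 6 of the genes, as log2(CPM + 1), against the mean log2(CPM + 1) of 13 neutrophil markers, with 1 point per sample of the LPS experiment (top, open diamonds for WT libraries of number 2) and of the sex experiment (bottom). In KO ns and across the 18 animals, Lcn2, Hp, Pglyrp1 and, less closely, Slpi follow the marker level, while Saa3 does not.

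In WT libraries taken as labelled, none of the genes was called between LPS and ns, and no gene of the table was. Of 15857 genes tested 0% passed, while 3605 had an unadjusted p under 0.05 and DESeq2 called 732. Saa3 had a log2 fold change of 2.02 ± 1.23 (adjusted p = 0.313). Lcn2 had medians of 599.8 CPM in WT ns and 1054 in WT LPS, with ranges of 21.4 to 1343 and 205.5 to 2385. DESeq2 called 0 of the 6 tested genes, and with edgeR Steap4 alone had an unadjusted p under 0.05. Steap4 had a log2 fold change of 1.27 ± 0.46 (SE, unadjusted p = 0.00967, adjusted p = 0.134), with 1.05 ± 0.57 and 1.48 ± 0.73 within the 2 library sets.

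Without the 4 WT libraries of number 2, Steap4 was called higher in WT LPS and Lcn2, Hp, Pglyrp1 and Slpi were not. In that fit, 4934 of 16088 genes were called, or 30.7%, and 15.5% higher. The 4 libraries were left out because Saa3 went against their treatment labels. Leaving them out widens by construction the difference of any gene that goes with Saa3, so all calls of this fit are descriptions. Saa3, which helped choose the libraries and is given as a description, was at 1.52, 1.60, 2.34, 3.16, 4.17 and 64.4 CPM in WT ns. In WT LPS it was at 1418, 1436, 1790, 1868, 2496 and 9720 CPM. The groups did not overlap, and the ratio of medians was 665.4, with WT ns 8 and WT LPS 7 standing above the rest of their groups. Steap4 was at 0.966 to 3.41 CPM in ns and 2.63, 2.70, 5.51, 7.38, 8.65 and 13.1 in LPS, a log2 fold change of 1.68 ± 0.57 (SE, adjusted p = 0.0251). Lcn2 was at 21.4, 64.2, 132.4, 269.7, 1285 and 1304 CPM in ns and 710 to 2385 in LPS. Its groups overlapped, through WT ns 3 and WT ns 8, and its log2 fold change was 1.43 ± 0.82 (adjusted p = 0.188). Those 2 ns libraries had the highest neutrophil marker levels of the experiment, at 20380 and 18970 CPM, and also the highest Hp, at 274.1 and 242.6 CPM. Hp, Pglyrp1 and Slpi had log2 fold changes of 0.43 ± 0.61, -0.36 ± 0.64 and -0.22 ± 0.57 (adjusted p 0.628 to 0.803). The library labelled WT LPS 6 had the highest Slpi, 76.2 CPM, and a summed level of erythroid markers of 22300 CPM, against at most 1086 in the other samples of that experiment. The part of these marker levels in the results was not tested.

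**Figure D3:**
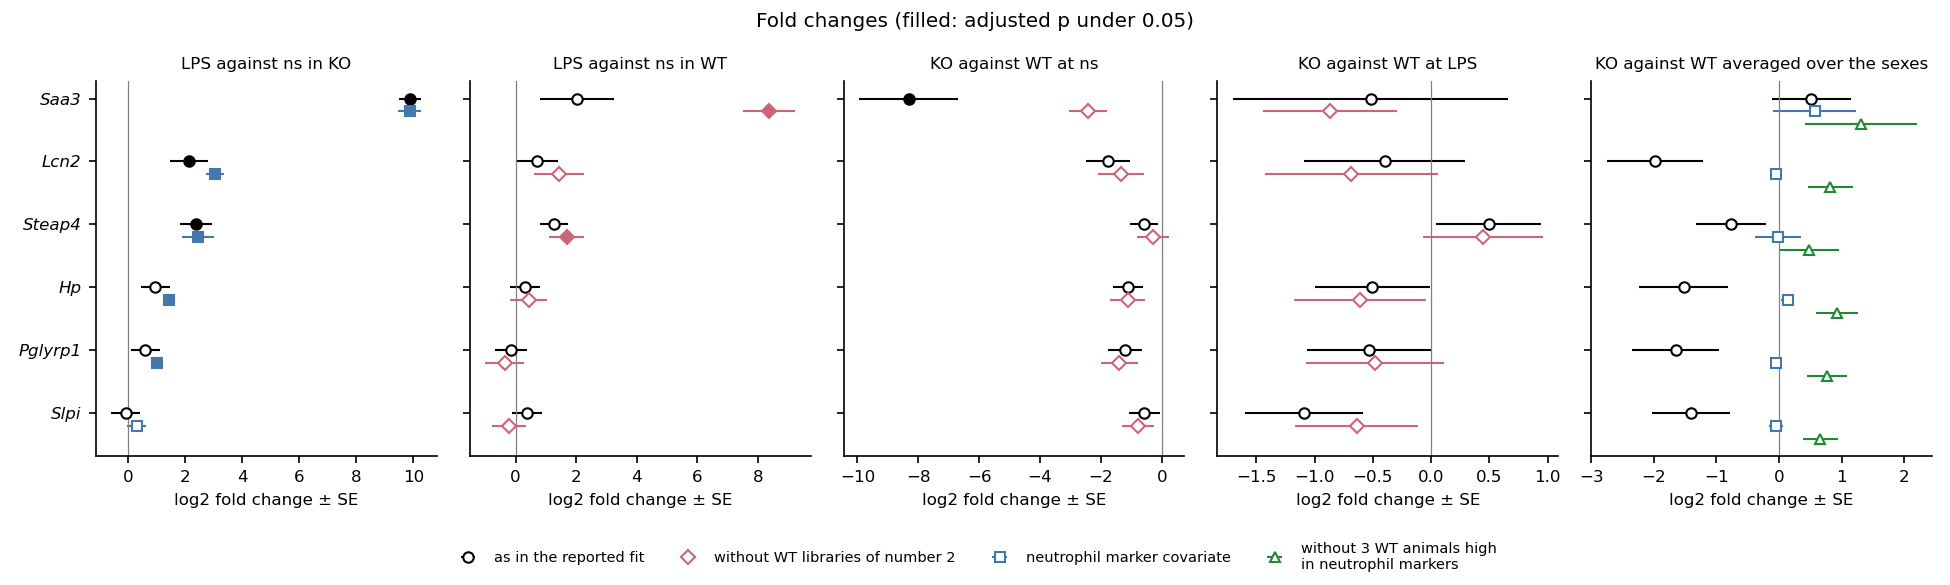
Log2 fold changes of 6 of the genes with their SE in 5 comparisons, from the reported fits and alternatives, with filled symbols for adjusted p under 0.05. The Saa3 difference between KO and WT at ns shrinks from -8.32 to -2.42 without the WT libraries of number 2. The averaged fold changes of Lcn2, Steap4, Hp, Pglyrp1 and Slpi change sign without 3 WT animals. Both are descriptions, since Saa3 helped choose those libraries and the 3 animals were the highest in Lcn2, Hp, Pglyrp1 and Slpi.

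Between genotypes in the LPS experiment, the only call among the genes was Saa3 at ns, in the fit of the libraries as labelled. At ns 18 of 15857 genes were called (0.114%), Saa3 among them. Its KO-to-WT log2 fold change was -8.32 ± 1.63 (SE, adjusted p = 0.0244). Without the 4 WT libraries of number 2, which Saa3 helped choose, it was -2.42 ± 0.62, given as a description. There WT ns 8, at 64.4 CPM, was the only WT ns library above 4.17 CPM, and KO ns reached 3.24. Lcn2, Hp and Pglyrp1 had log2 fold changes at ns of -1.77 ± 0.72, -1.11 ± 0.50 and -1.21 ± 0.55, with adjusted p of 0.508, 0.545 and 0.545. Without the 4 libraries they were -1.35 ± 0.75, -1.12 ± 0.57 and -1.40 ± 0.60 (adjusted p 0.525 to 0.571), and with the neutrophil covariate -1.93 ± 0.61, -0.73 ± 0.28 and -0.45 ± 0.19 (adjusted p 0.298 to 0.561). The 13 neutrophil markers had a median of -1.05 in the same comparison, with none called, and their part in the result was not tested. At LPS 20 genes were called (0.126%) and none of the 7. Saa3 differed by -0.52 ± 1.18 as labelled (adjusted p = 0.989) and by -0.87 ± 0.58 without the 4 libraries. Slpi differed by -1.09 ± 0.50 as labelled (adjusted p = 0.645), the only one of the 6 tested with an unadjusted p under 0.05 (0.0381), and DESeq2 called 0. Without the 4 libraries, of which WT LPS 6 had the highest Slpi, it differed by -0.64 ± 0.53 (adjusted p = 0.979). The test of a different LPS response in KO and WT called 0% of genes with edgeR, with 1698 genes at an unadjusted p under 0.05. DESeq2 called 11 genes, with Saa3 among them at 7.77 ± 1.53 (adjusted p = 0.00157). Without the 4 libraries that difference of responses was 1.55 ± 0.84 for Saa3 with edgeR, again a description. The comparisons at ns, at LPS and of the responses share libraries.

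In the sex experiment Saa3 was near the limit of detection in every animal, and none of the 7 genes was called in any comparison. Saa3 was at 0 to 0.362 CPM in the 18 animals, from at most 64 counts. Ptx3 was at 0 to 0.228 CPM, from at most 34 counts. KO against WT called 3 of 31709 genes in males (0.00946%), 52 in females (0.164%) and 137 averaged over the sexes (0.432%). The test of a sex-by-genotype difference called 0%, and female against male in WT 0.0725%. The sex-by-genotype test had 879 genes at an unadjusted p under 0.05 and 0 calls with DESeq2. Those tests had adjusted p of at least 0.495 for every one of the 7 genes, and DESeq2 called 0 of them. Averaged over the sexes, Lcn2, Hp, Pglyrp1 and Slpi had unadjusted p of 0.0215, 0.0478, 0.0311 and 0.0418 with edgeR, and in the other comparisons no gene of the 7 was under 0.05.

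**Figure D4:**
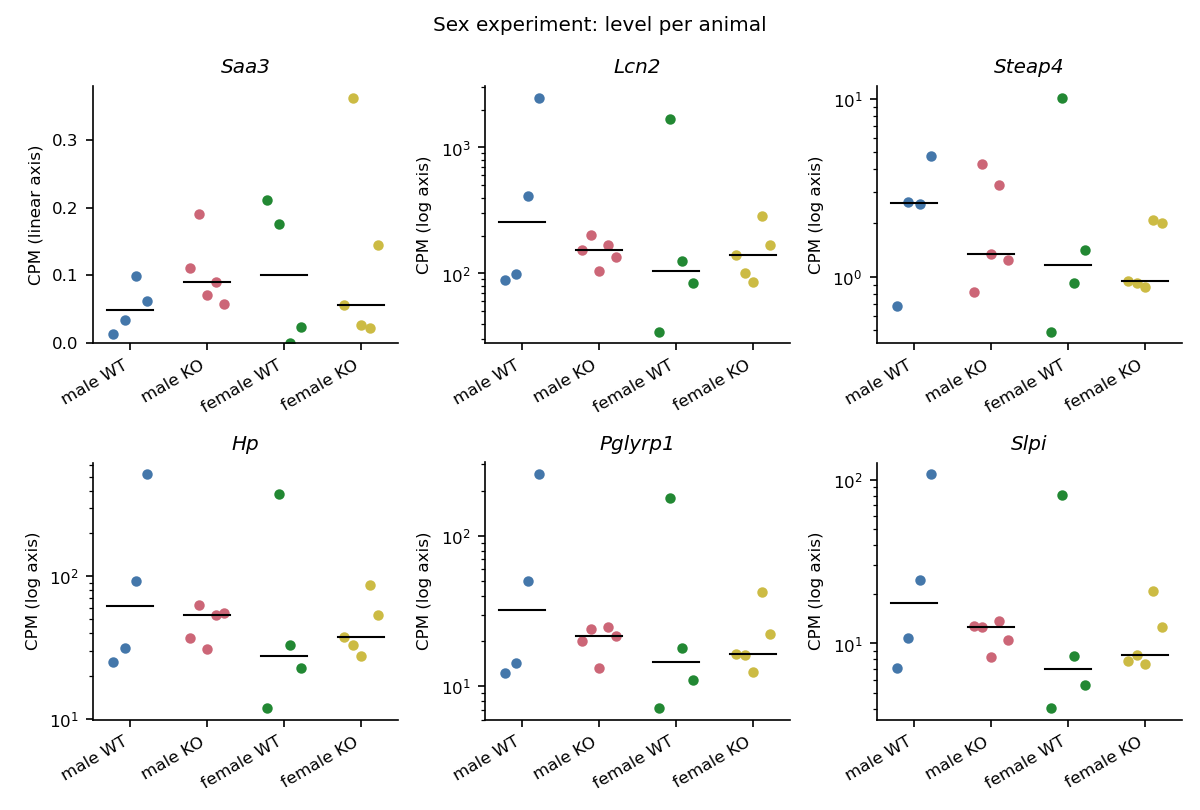
Level of 6 of the genes in every animal of the sex experiment, in CPM, with a line at the median of the group. Axes are logarithmic except for Saa3. Male WT 5 and female WT 2 stand above all other animals for Lcn2, Hp, Pglyrp1 and Slpi.

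In that experiment 3 WT animals stood apart. Lcn2 was at 89.1, 98.8, 411.7 and 2485 CPM in male WT, and at 34.6, 83.8, 126.7 and 1693 CPM in female WT. It was at 104.5, 136.2, 153.4, 167.8 and 202.6 CPM in male KO, and at 84.8, 99.98, 139.5, 167.7 and 288.5 CPM in female KO. The high animals were male WT 5, female WT 2 and, by less, male WT 4, and the KO animals reached 288.5 CPM, where the other WT animals reached 126.7. The same 3 animals had the highest Hp, Pglyrp1 and Slpi. Hp reached 521.2 CPM in male WT 5 and 380.8 in female WT 2, against 11.9 to 92.5 in the other 16 animals. Their summed neutrophil marker levels were 51850, 31080 and 8823 CPM, in the order male WT 5, female WT 2 and male WT 4, against 1503 to 6545 in the others. Averaged over the sexes, the log2 fold changes of KO against WT were -1.98 ± 0.77 for Lcn2, -1.53 ± 0.70 for Hp, -1.65 ± 0.69 for Pglyrp1 and -1.41 ± 0.63 for Slpi (adjusted p 0.495 to 0.552). Without those 3 animals, left out after their marker levels were seen (leaving 2 male and 3 female WT), the signs turned, to 0.82 ± 0.35, 0.92 ± 0.33, 0.76 ± 0.32 and 0.66 ± 0.28 (adjusted p 0.383 to 0.518). Those 3 were all WT and the highest of all animals in these genes, so leaving them out lowers the WT level by construction. The turn of sign is a description and no test. With the marker level as a covariate the fold changes were between -0.06 and 0.14. The KO-WT difference averaged over the sexes also had a median of -1.88 over the 13 neutrophil markers, with none called.

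Across the 18 animals, Lcn2, Hp, Pglyrp1 and Slpi had levels that went with the neutrophil marker level. Pearson's r of log2 CPM was 0.994 and rho 0.969 for Lcn2 (permutation p, two-sided, 1e-05 each, the smallest that the permutations can give, adjusted over 38 relations to 5.4e-05). Without male WT 5 and female WT 2, the animals farthest from the median, r for Lcn2 was 0.981. For Hp, Pglyrp1 and Slpi r without those animals was 0.951, 0.956 and 0.917. Steap4 had r = 0.778 and rho = 0.635 (permutation p 0.00052 and 0.0058), and 0.54 without them. Saa3 had r = -0.02 and rho = 0.154 (permutation p 0.92 and 0.54). Among themselves, Lcn2, Hp, Pglyrp1 and Slpi had r of 0.985 to 0.993 over the 18 animals, a description, since the same animals and the same marker level enter each pair.

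Among genes of the wider pathway, from lists set up with the 7 genes, 11 of 19 tested inducers rose under LPS in KO and 1 fell, of 21 listed, where 12% of all genes rose and 23.9% changed. Tnf had a log2 fold change of 4.23 ± 0.24, Socs3, the feedback inhibitor of STAT3, of 3.47 ± 0.34, and Il1b of 2.83 ± 0.41. Cebpb, a C/EBP factor, rose by 1.67 ± 0.28. Il6 fell by 2.26 on the log2 scale (SE 0.36, adjusted p = 0.000205). The median of the list was 0.686. Of other acute-phase proteins 3 of 8 tested genes rose and none fell, of 18 listed. They were Cp, which encodes the copper ferroxidase ceruloplasmin, at 4.07 ± 0.27, the metallothionein gene Mt2 at 2.46 ± 0.61 and complement C3 at 1.92 ± 0.58. Of antimicrobial effectors 2 of 12 tested genes were called, near the 23.9% of all genes. Of these 1 rose, Acod1, which makes itaconate, at 5.67 ± 0.42, and 1 fell, Lyz1, by 1.64 (SE 0.51), a gene near-identical to Lyz2. Of receptors and partners of the 7 proteins 5 of 12 tested genes rose, of 16 listed. They included Tlr2, a receptor that senses serum amyloid A and bacterial lipoproteins, at 2.80 ± 0.26, Trem1 at 2.67 ± 0.45 and the formyl peptide receptor Fpr1 at 2.55 ± 0.60. Hmox1, the haem oxygenase that degrades haem, rose by 1.23 ± 0.13, and Cd36 fell by 2.05 (SE 0.41). The lists overlap the marker lists: S100a8, S100a9, Camp, Ngp and Ltf count in the antimicrobial and neutrophil lists, and Cp in the reactive astrocyte list, of which 3 of 4 tested genes rose. In WT without the 4 libraries of number 2, Cp had 3.66 ± 0.35, Acod1 5.83 ± 0.68 and Tnf 4.86 ± 0.45. The WT values without those libraries are descriptions, since the libraries were left out for going against their treatment labels. Mt2 had 4.12 ± 0.75 there, while C3, at -0.30 ± 0.70 (adjusted p = 0.78), was not called. Of 19 tested inducers there, 11 were called higher and 0 lower, so the fall of Il6 in KO was not called in WT. In the sex experiment averaged over the sexes, 2 of 13 tested acute-phase genes were called, Mt1 and Mt2, both higher in KO, against 0.432% of all genes.

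The genes whose pattern was most like that of Saa3 over the 32 samples of the LPS experiment were Marco (r = 0.991), Msr1 (0.984), Aoah (0.98), Ahcy (0.978) and Cpd (0.978), out of 14289 genes compared. Marco and Msr1 encode scavenger receptors, and Aoah an enzyme that inactivates LPS. These r are descriptions over samples that share treatment. Within the 16 KO libraries, after the means of treatment and set were taken out, the genes most like Hp were 9830107B12Rik (r = 0.99), Trem3 (0.985) and Mmp8 (0.982). Those most like Lcn2 were Plscr1 (0.98), I830127L07Rik (0.977) and Mmp8 (0.977). Mmp8, the neutrophil collagenase, is also in the neutrophil list. Those most like Pglyrp1 were Hp (0.979), 9830107B12Rik (0.978) and Lin28a (0.965). Steap4 was most like Gm6377 (0.937), Ifitm1 (0.925) and Klra17 (0.91), and Saa3 most like Mcm8 (0.886), 1700123M08Rik (0.878) and Asb5 (0.869). Within the 16 KO libraries Lcn2 and Hp had r = 0.975, Saa3 and Lcn2 0.0893, and Saa3 and Steap4 0.627.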

How the data were processed

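RNA from CD11b-positive brain cells was sequenced from polyadenylated RNA, per the labels. The authors deposited raw counts per gene, 1 table per experiment. Per the submitters' processing notes, FastQC, STAR 2.6.1, featureCounts, Subread, DESeq2 and the build GRCm39 were named, with no role, parameters or strand setting. Every gene's length in the sex table is its whole span, per the file headers, so intronic reads lie in the counted span. Low counts were even numbers in 79% to 89.2% of cases in the sex experiment and in 39.7% to 45.6% in the LPS experiment, so no model joins the tables. The table of the LPS experiment gives no coordinates.

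Groups were taken from labels, and 0 columns lacked a sample. The 6 repeat libraries of the sex experiment have no column and were not analysed here. Counts were filtered (filterByExpr), scaled (TMM) and tested with edgeR 4.0.16 (quasi-likelihood F test, robust) in R 4.3.3, with Benjamini-Hochberg adjustment over all genes. The KO comparison of LPS and ns used the 16 KO libraries with library set as a covariate. All other LPS comparisons used 1 fit of 32 samples as labelled, also with library set as a covariate. The sex comparisons used 1 fit of 18 animals without a covariate. The pair WT LPS 8 and 9, with chi-square over degrees of freedom at 1.86 (8.32 or more in other pairs of a group), was summed. SE is the log2 fold change over the root of F. Permutation tests used scipy 1.17.1.

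Alternatives were DESeq2 1.42.0, RLE scaling, no filter, each library set, a replicate block, the pair kept apart, all groups in the KO fit, libraries of number 2 left out, and each animal left out in turn. Added after seeing the data were the neutrophil covariate, leaving out the 3 WT animals and leaving out each KO library. Named are the 7 genes, the 3 largest called changes of each list in KO, and the genes most like each by r (those for Slpi are not reported here). Cebpb, Il6, Hmox1 and Cd36 were named after their values were seen. The genes, lists and left-out libraries were chosen with earlier results of these data known. The fits were tested on simulated data.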

Additional observations from a re-analysis of the deposited data

Results flagged for a closer look

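Dixon's test for a sample far from the rest of its group marked 15 of 56 groups of a gene, of which 8 lie in the sex experiment. Chance marks about 1 in 20 groups that are independent. These groups are not, since the same samples enter genes whose levels go together, so the 2 shares are not a test. In female WT, animal 2 stood apart for Lcn2 at 1693 CPM (next 126.7), Hp at 380.8 (next 32.65), Slpi at 80.95 (next 8.438), Steap4 at 10.14 (next 1.404) and Pglyrp1 at 178.9 (next 17.87). In male WT, animal 5 stood apart for Lcn2 at 2485 CPM (next 411.7), Hp at 521.2 (next 92.49) and Pglyrp1 at 258.1 (next 50.09). These 2 animals had the highest neutrophil marker levels of the experiment, whose part in these values was not tested.

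In the LPS experiment, KO LPS 5 stood apart for Saa3 at 3698 CPM (next 1383), Slpi at 31.79 (next 16.27) and Steap4 at 35.55 (next 8.237). Its neutrophil marker level of 4591 CPM lay within the range of its group. WT LPS 7 stood apart for Saa3 at 9720 CPM (next 2496) and for Ptx3 at 0.6331 (next 0.2147), with the highest summed neutrophil marker level of its group, 13760 CPM. Ptx3 also marked KO LPS 7 at 0.1382 CPM and KO ns 3 at 0.03585, values of 3 counts and 1 count. The other KO ns libraries were at 0, so the mark of KO ns 3 was automatic.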

How the results depend on the processing

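Saa3 in KO under LPS was called higher in all alternatives run, with log2 fold changes of 9.45 to 9.93 (adjusted p 0.000823 or less) and 9.57 to 9.97 when 1 KO library was left out. Calls of Lcn2 and Steap4 there depended on library set and on single libraries for Lcn2. Of the 7 genes, 3 were called there, against 1 in the second set alone and 5 with the neutrophil covariate. In WT as labelled 0 were called, and 2 without number 2 in any group or in WT. Those are Steap4 and Saa3. The WT libraries were left out because Saa3 went against their labels. Both calls, and the loss of the Saa3 call at ns below, are therefore descriptions and no tests. At ns 1 was called between KO and WT, and 0 with no filter, with the replicate block, in either set and without number 2 (any group or WT). The difference of responses had 0 calls, and 1 with DESeq2. Deviations from group means of same-numbered samples had a mean r of 0.121 in 45 pairs (LPS experiment, 23 over 0.1) and 0.0994 in 24 pairs (sex experiment, 15 over 0.1). Samples of different numbers had -0.0209 in 147 pairs (LPS experiment, 63 over 0.1) and -0.0193 in 97 pairs (sex experiment, 31 over 0.1). The LPS experiment entered as labelled, with the WT libraries of number 2, so the check cannot settle pairing there. The reported fits did not take the numbers as pairs. With the replicate block the Saa3 difference at ns was -5.88 (adjusted p = 0.431), Slpi in KO under LPS was 0.29 and Pglyrp1 in WT under LPS was 0.31, both of opposite sign to the reported value, and Saa3, Lcn2 and Steap4 in KO remained called. All-gene calls were 339 to 7865 (reported 3534) for KO under LPS, 0 to 5739 (0) for WT under LPS, 0 to 157 (18) for KO against WT at ns, 0 to 135 (20) at LPS, 0 to 11 (0) for the difference of responses, 54 to 358 (137) averaged over the sexes, 5 to 220 (52) in females, 3 to 27 (3) in males and 13 to 153 (23) for female against male.

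In the comparisons whose values are given gene by gene, values without a call that turned sign under an alternative were these. Slpi in KO under LPS was 0.47 in the second set and 0.31 with the covariate, and -0.37 to 0.29 with 1 library left out. Pglyrp1 was -0.10 in the first set. In WT under LPS, Slpi was -0.28 without number 2 in any group and -0.22 without the 4 WT libraries, and Pglyrp1 was 0.00096 in the first set and 0.69 with the covariate. Steap4 in KO against WT at LPS was -0.14 without number 2 in any group. For the difference of responses, Slpi was 0.00997 in the second set and 0.15 without the 4 WT libraries, and Pglyrp1 -0.0578 in the first set. In males, Lcn2, Hp, Steap4 and Pglyrp1 were 0.0555, 0.24, 0.40 and 0.0441 with the covariate, and with Slpi 0.71, 0.76, 0.42, 0.65 and 0.38 without the 3 WT animals. In females, Hp was 0.0377 with the covariate, and Lcn2, Hp, Slpi, Steap4 and Pglyrp1 were 0.93, 1.08, 0.93, 0.55 and 0.87 without the 3 WT animals. Averaged over the sexes, Hp was 0.14 with the covariate, and Lcn2, Hp, Slpi, Steap4 and Pglyrp1 were 0.82, 0.92, 0.66, 0.48 and 0.76 without the 3. The cause was not tested, and values without the 3 WT animals, the highest in Lcn2, Hp, Slpi and Pglyrp1, are descriptions. Leaving out 1 animal in turn gave no call of these genes. In females the range was -2.02 to 0.93 for Lcn2, -1.61 to 1.09 for Hp, -1.47 to 0.94 for Slpi, -1.62 to 0.55 for Steap4, -1.68 to 0.87 for Pglyrp1, -0.80 to 0.82 for Saa3 and -0.0518 to 0.66 for Ptx3. In males it was -0.68 to 0.16 for Steap4 and -0.0815 to 0.51 for Ptx3, and averaged over the sexes -0.97 to 0.13 for Steap4.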
